A study of Mus musculus with 23 samples.

Results

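The comparison described here is between C2C12 cells labelled Runx1KO and control C2C12 cells after 1 day in differentiation medium. C2C12 is an established mouse myoblast line that divides in serum-rich medium and, when serum is lowered, leaves the cell cycle and fuses into myotubes. The libraries were chosen by their day and genotype labels: 3 Runx1KO and 3 control libraries of day 1, 6 of the 23 libraries of the series. Both groups had been kept for 1 day in 2% horse serum. The day 0 libraries used for comparison (2 control and 3 Runx1KO) came from cells in growth medium with 20% fetal bovine serum, and 3 libraries of each genotype from day 3 served for the next step. The labels name no deleted segment, do not say whether the Runx1KO cells are a single clone or a pool, and give no treatment that both genotypes share beyond the medium. Nothing in them says that the 3 libraries of a group came from separate cultures, so the p-values measure the spread between these libraries, which may be technical. Below, KO and WT stand for the libraries labelled Runx1KO and control.

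Runx1 is a DNA-binding transcription factor of the Runt family that works with the partner protein Cbfb. It is low in resting adult muscle, and is induced when muscle is denervated or regenerates, where it acts in proliferating myoblasts. In the first day after serum withdrawal, cycling myoblasts lower the genes of DNA replication and mitosis, which are held down by Rb family proteins and by the DREAM and E2f complexes. The muscle regulator Myod1, already present in cycling myoblasts, then turns on Myog and the first contractile genes, while arrested cells raise matrix and growth arrest genes.

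Each library held between 22197606 and 23684077 estimated counts, and values are given as CPM, read counts relative to library sizes scaled by the trimmed mean of M-values, a unit in which libraries of different depth can be compared. The target itself checked the labels first: Runx1 (chr16:92601466-92826074, GRCm38.p6) was at 137, 117 and 138 CPM in KO replicates 1 to 3 and at 104, 108 and 95.6 CPM in WT. All 3 KO values were above all 3 WT values (log2 fold change 0.35, SE 0.08, adjusted p = 0.0015), so Runx1 mRNA was not lower in the libraries labelled Runx1KO. A gene-level count does not show whether the mRNA still carries an intact reading frame, and the direction of every genotype difference below rests on the labels. Muscle lineage markers were present in all 6 libraries: the 10 markers summed to 3579 to 3774 CPM in WT and 3274 to 4048 CPM in KO. Endothelial markers summed to at most 1.24 CPM in any day 1 library. Blood and macrophage markers summed to 18.1 to 20.9 CPM in WT and 15.4 to 21.6 CPM in KO, with Ptprc, Adgre1 and Hbb-bs at 0 in all 6 libraries. Epithelial markers summed to 2.95 to 4.89 and 3.06 to 3.29 CPM, with Epcam and Cldn7 at 0, and neural and glial markers to 90.9 to 98.9 CPM in WT and 114 to 153 CPM in KO, with Sox10 and Rbfox3 at 0.

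One library stood apart. For each library, the deviation of a gene from the mean of the other libraries of its group was set against transcript GC content. In KO replicate 2 this deviation ran with GC content (r = -0.64 across 13351 genes, a description in which genes are not independent). In each of the other KO libraries, whose comparison mean includes KO replicate 2, r was 0.44. In the 3 WT libraries |r| was at most 0.053. In the bin of genes with the lowest GC content, of 10 bins (median 41.1%), KO replicate 2 lay 0.50 log2 units above the mean of the other KO libraries, and in the bin with the highest (median 60.3%) it lay 0.57 below. The nuclear RNA Malat1 was at 35.5, 159.8 and 30.6 CPM in KO replicates 1 to 3 and 34.5, 39.7 and 40.5 CPM in WT. The list counts below are therefore also given without this library.

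**Figure D1:**
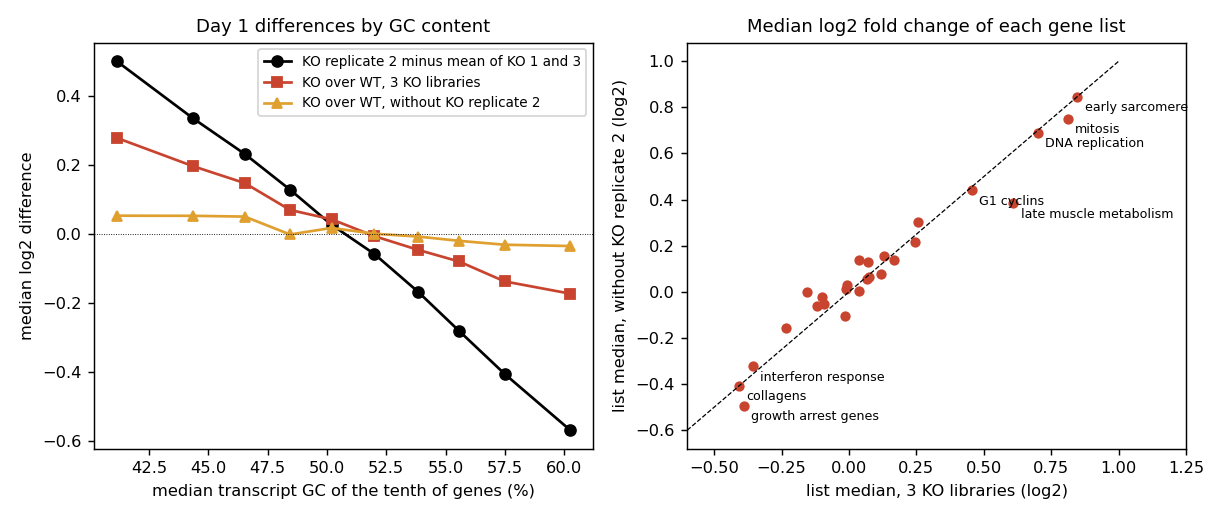
Left: median log2 difference (vertical axis) over 10 equal bins of genes ordered by transcript GC content (horizontal axis, percent), for KO replicate 2 against the other KO libraries (circles) and for KO over WT with (squares) and without (triangles) that library. Right: median log2 fold change of each of 26 gene lists with all 3 KO libraries (horizontal) and without KO replicate 2 (vertical). The KO over WT slope runs from 0.28 to -0.17 with the library and from 0.05 to -0.03 without it, while among the plotted list medians the late muscle one (0.61 to 0.38) and the immediate early one (-0.16 to 0.00) moved most. The RNA quality list, with 2 tested genes, is not plotted and moved more (0.26 to -0.49).

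Across the transcriptome the KO and WT libraries differed widely on day 1. Of 14187 genes tested with edgeR's quasi-likelihood test (adjusted p under 0.05), 3251 were higher in KO (22.9%) and 2730 lower (19.2%). Without KO replicate 2 the shares were 19.7% higher and 18.9% lower. Both fits called 2336 genes higher and 2327 lower, of which 361 and 785 differed by at least 2-fold. The genes called higher only with KO replicate 2 numbered 915 and had a median GC content of 45.3%, against 51.1% over all tested genes. Fitted on the 6 day 1 libraries alone, 1674 genes passed as higher and 1933 as lower, and 2985 and 2989 when KO replicate 2 was left out of that fit. The 3 KO and 3 WT libraries did not overlap for 47.1% of tested genes. Genes named below as the widest of the comparison or of a list were required not to overlap, so their separation follows from that choice. On the log2(TPM + 1) scale the share of calls that were higher was 43.3%, against 54.4% in the count test.

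**Figure D2:**
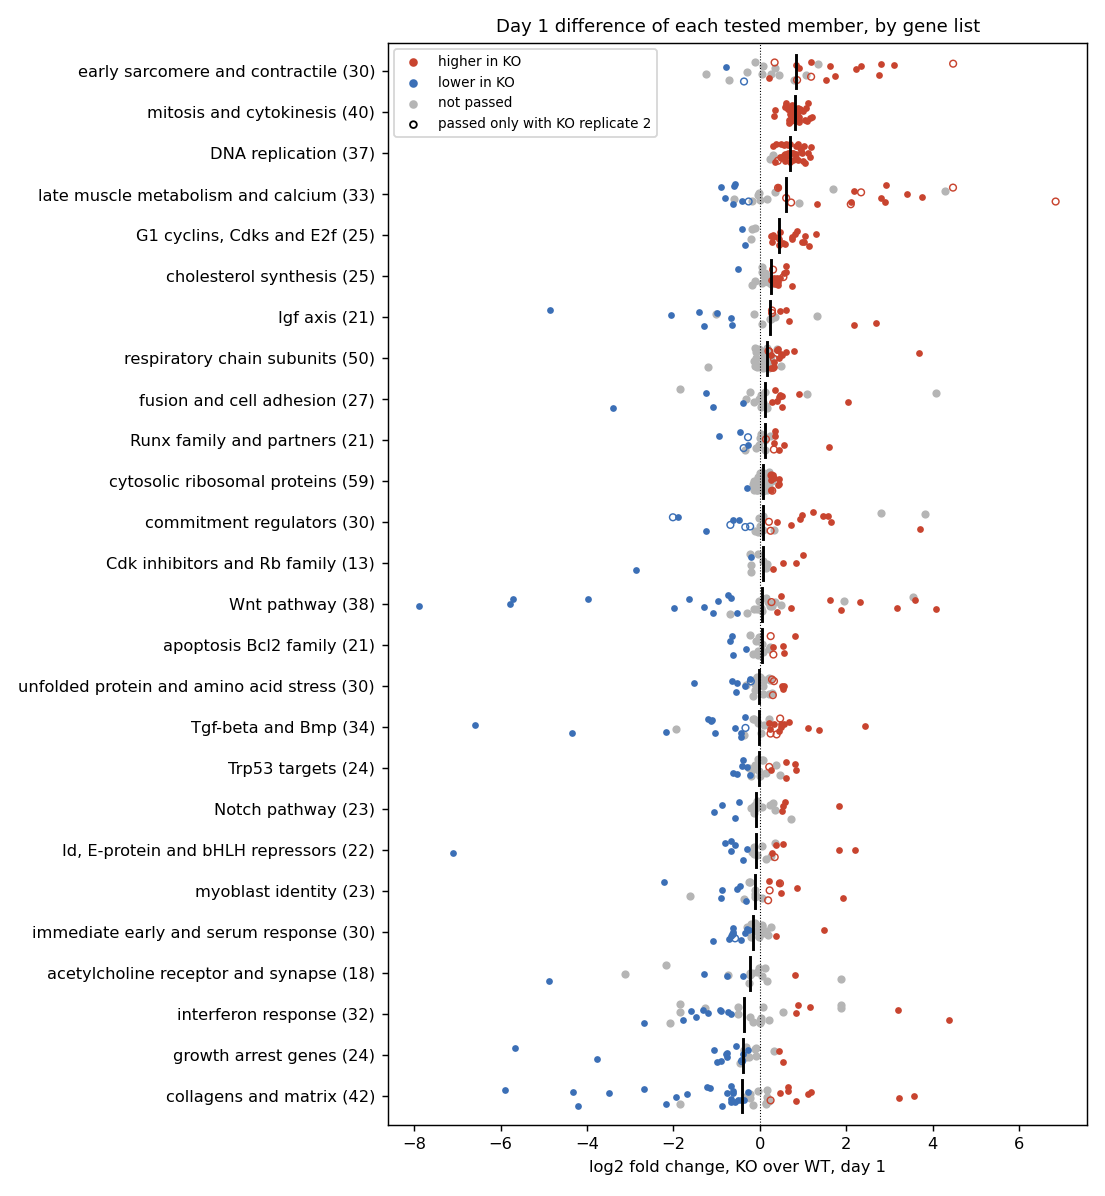
Log2 fold change on day 1, KO over WT (horizontal axis), of tested members of 26 gene lists (rows, number tested in brackets). Members that the data hold under an older symbol, Ctgf and Cyr61 among them, are counted in the brackets but not plotted. Red points passed as higher in KO, blue as lower, grey did not pass, open points passed only with KO replicate 2, and black bars are list medians. All 40 mitosis genes lie to the right of 0, and 22 of 42 collagen and matrix genes passed as lower.

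Genes of cell division formed the most uniform group. All 40 tested genes of mitosis and cytokinesis were higher in KO, by a median log2 fold change of 0.81, beside a median of 0.03 over all genes tested, and all 40 also passed without KO replicate 2. Of 37 DNA replication genes, 35 were higher and none lower (median 0.70), and 36 were higher without that library. Of 25 G1 cyclins, Cdks and E2f factors, 20 were higher and 2 lower (median 0.45), the same counts as without it. The mean log2 CPM over the mitosis genes was 6.37, 6.49 and 6.26 in the KO libraries and 5.56, 5.52 and 5.63 in WT, so the groups did not overlap.

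Kif11, the kinesin motor that pushes spindle poles apart, was at 95.9, 125 and 83.9 CPM in KO and 41.4, 44.3 and 49.4 CPM in WT. Every KO library lay above every WT library, a 2.25-fold difference (log2 fold change 1.17, SE 0.12, adjusted p = 3.6e-08). Smc2, a condensin subunit that compacts mitotic chromosomes, was at 77.5, 140.3 and 76 CPM in KO and 43.3, 41.1 and 42.9 CPM in WT. KO replicate 2 was the highest for both genes, and without it the log2 fold changes were 0.98 for Kif11 and 0.83 for Smc2, both still past the threshold. Ect2, an exchange factor needed for cytokinesis, was at 66.5, 89.1 and 59.8 CPM against 33.6, 32.3 and 33.4 CPM in WT (log2 fold change 1.12, SE 0.13, adjusted p = 5e-07). Ube2c, the ubiquitin-conjugating enzyme of the anaphase-promoting complex, had the highest mean TPM of the list. It was at 147, 99.2 and 141 CPM in KO and 76.8, 81.9 and 88.4 CPM in WT. Here KO replicate 2 was the lowest KO library, and the difference was smaller (log2 fold change 0.65, SE 0.12, adjusted p = 0.00013).

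In the replication list, Pola1, the catalytic subunit of the polymerase that primes DNA synthesis, was at 25.4, 40.3 and 23.7 CPM in KO and 13.1, 14.3 and 12.1 CPM in WT (log2 fold change 1.18, SE 0.15, adjusted p = 1.9e-06). KO replicate 2 was again the highest, and the value without it was 0.88. Cdc6, which loads the replicative helicase at origins, was at 28.6, 24 and 27.9 CPM in KO and 13.2, 11.8 and 12.2 CPM in WT. The 3 KO libraries lay close together for Cdc6, with KO replicate 2 the lowest (2.16-fold, log2 fold change 1.11, SE 0.09, adjusted p = 2.3e-09). Gins3, a subunit of the replicative helicase, was at 29.4, 37.4 and 27.8 against 14.1, 12.4 and 15.6 CPM. Pcna, the sliding clamp and the most abundant member by TPM, was at 153, 185 and 132 against 94, 91.2 and 93.5 CPM (log2 fold change 0.76, SE 0.10, adjusted p = 1.4e-06).

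At the entry to S phase, Ccne2, a cyclin that activates Cdk2, was at 21.3, 27 and 19.2 CPM in KO and 9.3, 8.19 and 10.1 CPM in WT (log2 fold change 1.29, SE 0.14, adjusted p = 2e-07). Cdk1, the mitotic kinase, was at 125, 125 and 110.5 against 54.4, 57.4 and 61.9 CPM, and E2f2, an activating E2f factor, at 81, 63.5 and 73.5 against 35.3, 26.4 and 37.2 CPM. The G1 partners moved less: Ccnd1 (cyclin D1) was 1.19-fold higher (adjusted p = 0.033) and Cdk4, the most abundant member of the list, 1.22-fold higher (adjusted p = 0.012). For Cdk4 the groups overlapped, since KO was at 526, 397 and 529 CPM and WT at 394, 376 and 418 CPM.

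The promoters of these genes carry known cell-cycle elements, and 3 are shown because their genes were higher in KO on day 1 and lower on day 1 than on day 0. Each run is the 250 bases before a transcript start, 5′ to 3′ on the gene's strand, from RefSeq on GRCm38.p6. Capitals mark CCAAT (or ATTGG on the other strand), the cell cycle homology element TTTGAA and the E2f site TTTNGCGC, the last 2 on either strand as well.
Kif11, chr19:37376132-37376381, plus strand: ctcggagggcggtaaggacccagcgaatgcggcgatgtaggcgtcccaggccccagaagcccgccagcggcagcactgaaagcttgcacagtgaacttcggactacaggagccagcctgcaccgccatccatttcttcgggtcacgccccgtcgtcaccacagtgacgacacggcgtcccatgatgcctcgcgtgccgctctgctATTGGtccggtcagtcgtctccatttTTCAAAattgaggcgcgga
Cdk1, chr10:69352913-69353162, minus strand: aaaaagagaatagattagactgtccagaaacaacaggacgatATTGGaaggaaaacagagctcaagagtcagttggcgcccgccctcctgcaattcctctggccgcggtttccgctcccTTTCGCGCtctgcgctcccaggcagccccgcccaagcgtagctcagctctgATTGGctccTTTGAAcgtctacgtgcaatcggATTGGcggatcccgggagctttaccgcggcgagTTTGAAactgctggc
Mcm6, chr1:128359706-128359955, minus strand: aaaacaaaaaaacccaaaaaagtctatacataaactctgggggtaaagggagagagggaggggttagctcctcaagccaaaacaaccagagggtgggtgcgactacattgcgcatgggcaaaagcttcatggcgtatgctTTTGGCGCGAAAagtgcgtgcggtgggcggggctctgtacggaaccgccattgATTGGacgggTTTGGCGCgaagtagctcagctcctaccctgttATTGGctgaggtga
In Kif11 the TTTGAA match began 19 bases and the CCAAT match 45 bases before the start. Cdk1 held 2 TTTGAA matches, 3 CCAAT matches and 1 E2f match. Mcm6, a helicase subunit chosen for display after its values were seen, held 3 E2f matches, 2 of them overlapping, and was at 142, 148 and 127 CPM in KO and 100.4, 95.6 and 87.8 CPM in WT (log2 fold change 0.55, SE 0.08, adjusted p = 6.5e-06).

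The share of promoter windows holding each element differed between the lists. Windows of 300 bases, from 250 before to 50 after a start, were searched on both strands, and 10623 tested genes had 13538 windows. TTTGAA was present in 75.0% of 36 windows of the mitosis genes, in 11.8% of 34 windows of the replication genes and in 12.02% of all windows. TTTNGCGC was present in 29.4% of the replication windows, 2.78% of the mitosis windows and 2.40% of all. CCAAT was present in 72.2% and 58.8% of the mitosis and replication windows and in 37.8% of all. Among genes higher in KO in both fits, TTTNGCGC was in 4.07% and TTTGAA in 14.9% of 2335 windows. The Runx letters TGTGGT were in 12.5% of the windows of genes higher in KO, 13.8% of 2324 windows of genes lower in KO and 12.4% of all. By smaller set they were in 6 of 24 windows, from 18 of the 24 genes with the widest differences, and 8 of 33 of the early sarcomere genes. In the late muscle, replication and mitosis lists they were in 18.4%, 17.6% and 16.7%, in the matrix list in 12.9% and in the growth arrest list in 2 of 25 windows. These counts describe letters in a window and carry no test.

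Nearly all mitosis and replication genes fell between day 0 and day 1 in both genotypes, and most of them fell less in KO. In WT, all 40 mitosis genes and all 37 replication genes were lower on day 1 than on day 0 (medians -1.48 and -1.62), where 27.6% of all tested genes were lower and 27.1% higher. In KO, 38 and 37 of them were lower (medians -0.71 and -1.01), where 25.2% of all genes were lower and 27.2% higher. Without KO replicate 2, 39 and 37 were lower, beside 26.0% of all genes lower and 27.7% higher. On day 0 the mean log2 CPM of the mitosis genes was 7.13 ± 0.04 (SD, n = 3) in KO and 7.05 ± 0.04 (SD, n = 2) in WT. On day 1 it was 6.37 ± 0.11 (SD, n = 3) in KO and 5.57 ± 0.05 (SD, n = 3) in WT.

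The genotype difference itself was tested between the days. In the day 1 minus day 0 test, which shares its day 1 libraries with the comparison above, 2.64% of all genes had a higher change in KO and 1.31% a lower one. Of the mitosis genes 32 of 40 had a higher change in KO and none a lower one, and of the replication genes 23 of 37 and none. Of the 25 G1 genes only 7 had a higher change in KO and 1 a lower one, and 6 and 1 without KO day 1 replicate 2. The 7 fell to 3 without KO day 0 replicate 1, or without WT day 1 replicate 1 or 2. Without WT day 0 replicate 1 or 2 the median change of the G1 list was 0.28 or 0.25, beside 0.26 with all libraries. For Cdc6 the day 1 difference exceeded that of day 0 by 1.04 on the log2 scale (SE 0.13, adjusted p = 8.9e-05), for Ccne2 by 1.18 (SE 0.20, adjusted p = 0.0017) and for Kif11 by 1.00 (SE 0.17, adjusted p = 0.0015). Gins3 and Ube2c did not pass this test (adjusted p = 0.4 and 0.086), and Ube2c passed without KO day 1 replicate 2 (adjusted p = 0.0061). The counts depend on single libraries of 3 groups: without WT day 0 replicate 2, 12 mitosis and 15 replication genes passed, without WT day 0 replicate 1 or WT day 1 replicate 2, 22 and 19, without WT day 1 replicate 1, 23 and 19, and without KO day 0 replicate 1, 23 and 20. Without KO day 1 replicate 2 they were 35 and 27, beside 2.35% of all genes with a higher change and 1.72% with a lower one. Over all 14569 genes tested without WT day 0 replicate 2, the counts fell to 99 higher and 49 lower.

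**Figure D3:**
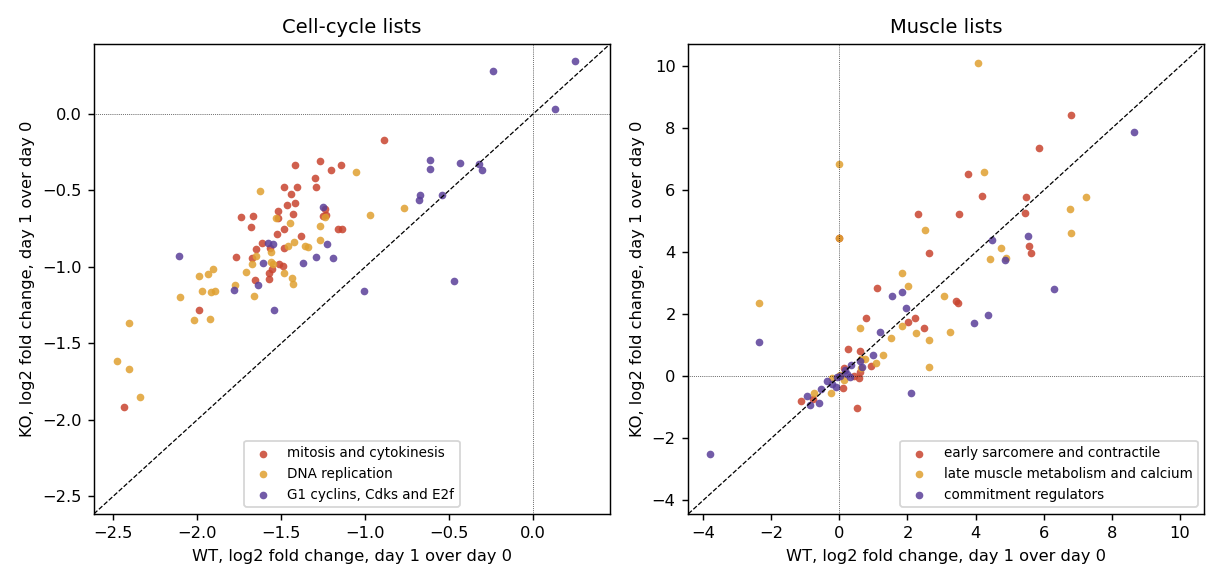
Log2 fold change from day 0 to day 1 in WT (horizontal axis) against the same in KO (vertical axis) for each tested gene of 3 cell-cycle lists (left) and 3 muscle lists (right); the dashed line marks equal change. All 40 mitosis genes and all 37 replication genes lie above the line at negative values, and the muscle genes scatter on both sides of it.

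The difference in these genes persisted on day 3. The mean log2 CPM of the mitosis genes was 6.70 ± 0.11 (SD, n = 3) in KO and 5.65 ± 0.16 (SD, n = 3) in WT. In the day 3 minus day 1 test 6 of the 40 had a higher change in KO, beside 3.47% of all genes, and none a lower one, beside 2.58%. Without KO day 1 replicate 2 it was 7 of the 40, beside 3.63% of all genes with a higher change and 3.97% with a lower one, and on the log2(TPM + 1) scale 2. Over all genes that library moved the counts from 492 higher and 366 lower to 515 and 562, so that more genes had a lower than a higher change without it. The mean log2 CPM of the replication genes was 5.67 ± 0.16 in KO and 5.01 ± 0.07 in WT on day 3 (SD, n = 3) and 5.38 ± 0.09 and 4.69 ± 0.02 on day 1 (SD, n = 3).

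**Figure D4:**
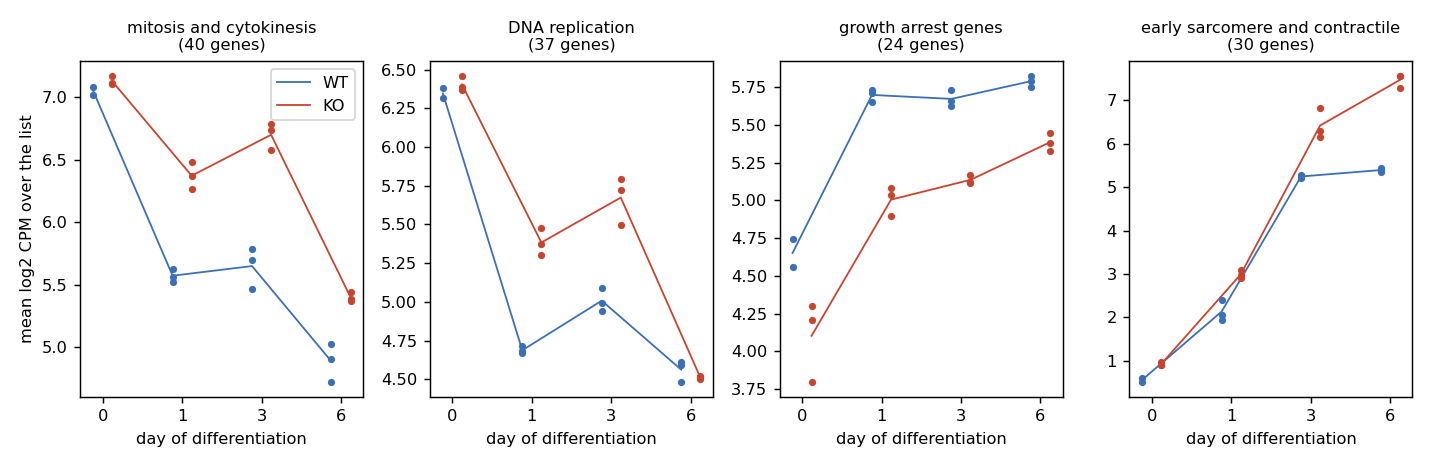
Mean log2 CPM over the tested genes of 4 lists (vertical axis, scale differing between panels) by day (horizontal axis, not to scale) in each WT (blue) and KO (red) library; lines join group means. The mitosis genes start at 7.05 (WT) and 7.13 (KO) on day 0 and stand at 5.57 and 6.37 on day 1, and the growth arrest genes are lower in KO on day 0 as well as on day 1.

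The inhibitors of the cell cycle did not move as a group. Of 15 listed Cdk inhibitors, Rb family proteins and DREAM subunits, 13 could be tested, of which 4 were higher and 2 lower in KO, and 5 and 3 without KO replicate 2, beside 22.9% and 19.2% of all tested genes with that library and 19.7% and 18.9% without it. Cdkn1a (p21), which Myod1 induces as myoblasts arrest, was at 347, 249 and 342 CPM in KO and 352, 362 and 366 CPM in WT, and did not pass the test (log2 fold change -0.20, SE 0.12, adjusted p = 0.19). All 3 KO values lay below the WT values, KO replicate 2 by the most. Cdkn1c (p57), the imprinted Cdk inhibitor, was scarce in both groups, at 0.226, 0.293 and 0.313 CPM in KO and 1.91, 1.87 and 2.39 CPM in WT. The 2 groups were separate (7.28-fold lower in KO, log2 fold change -2.86, SE 0.37, adjusted p = 2.1e-06). Rb1, the retinoblastoma protein, was at 28.8, 39.1 and 31.3 against 37.2, 40.4 and 36 CPM (adjusted p = 0.23, and 0.029 without KO replicate 2). Rbl1 (p107), itself an E2f target, was higher (log2 fold change 0.53, SE 0.10, adjusted p = 0.00019), as were the DREAM subunits Lin9 (0.99) and Lin54 (0.85).

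Of 24 growth arrest genes, which rise in quiescent or serum-starved cells, 13 were lower in KO, beside 19.2% of all tested genes, 2 were higher and 9 did not pass (median -0.39). Without KO replicate 2, 14 were lower and 3 higher. Gas6, the secreted ligand of the Tam receptors, was at 0.586, 0.293 and 0.313 CPM in KO and 5.06, 6.66 and 4.61 CPM in WT (13.6-fold lower, log2 fold change -3.76, SE 0.28, adjusted p = 2.3e-10). Txnip, an inhibitor of thioredoxin and of glucose uptake, was at 75.3, 76.4 and 80.1 CPM in KO and 154, 178 and 154 CPM in WT (2.1-fold lower). Foxo1, a transcription factor active when growth factor signalling is low, was at 14.6, 14.5 and 15.4 against 30.4, 30.9 and 27.8 CPM (adjusted p = 2.4e-08). The most abundant member, Ndrg1, was at 1051, 987 and 1162 CPM against 1273, 1491 and 1219 CPM and did not pass (adjusted p = 0.27). Between day 0 and day 1, 16 of the 24 rose in WT and 17 in KO (18 without KO replicate 2), beside 27.1% and 27.2% of all genes. On day 0 its mean log2 CPM was 4.10 ± 0.27 (SD, n = 3) in KO and 4.65 ± 0.13 (SD, n = 2) in WT, and on day 1 5.00 ± 0.09 and 5.70 ± 0.04 (SD, n = 3 each).

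Among 30 immediate early and serum response genes, 12 were lower and 3 higher in KO on day 1, and 11 and 5 without KO replicate 2, where 19.2% of all tested genes were lower and 22.9% higher (18.9% and 19.7% without it). The list median was -0.16 with that library and 0.00 without it. Ier3, an immediate early gene, was at 123, 100.02 and 142 CPM in KO and 236, 307 and 225 CPM in WT (log2 fold change -1.08, SE 0.14, adjusted p = 1.6e-06). Junb, the most abundant member, was at 613, 372 and 604 against 722, 729 and 688 CPM. Its KO libraries lay below all WT libraries, and leaving out KO replicate 2 moved the log2 fold change from -0.43 to -0.25. In the other direction, Ctgf, a matrix-associated target of Yap and serum response factor, was at 80.7, 74.6 and 82.1 CPM in KO and 15.2, 17.3 and 14.2 CPM in WT (5.07-fold higher). Spry4, a feedback inhibitor of receptor tyrosine kinase signalling, was at 22.9, 18.7 and 22.3 against 7.82, 6.66 and 8.24 CPM (2.81-fold higher).

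Of 28 listed myoblast identity genes, 23 were tested, 8 higher and 6 lower, and 5 and 7 without KO replicate 2. Over all genes the shares were 22.9% and 19.2%, and 19.7% and 18.9% without it, so the 5 of 23 higher without it are near the share of all genes. Myf5, the myogenic factor of undifferentiated myoblasts, was at 28.8, 29 and 26.4 CPM in KO and 51.3, 53.8 and 51.5 CPM in WT. All KO libraries lay below all WT libraries (log2 fold change -0.89, SE 0.07, adjusted p = 1.6e-09). On day 0 the means were 13 CPM in KO (n = 3) and 35.1 CPM in WT (n = 2), and the difference was smaller on day 1 than on day 0 (log2 0.53, SE 0.11, adjusted p = 0.0075). Pax7, the factor of satellite cells, was at 55.8, 45.3 and 55.8 against 79.8, 75 and 69.7 CPM (log2 fold change -0.52, SE 0.11, adjusted p = 0.00077). Fgfr4, the Fgf receptor of differentiating myoblasts, was 4.63-fold lower (14.8, 10.3 and 17.7 against 66.7, 58.5 and 72.4 CPM). Sdc3, a syndecan of satellite cells, was 1.84-fold lower. Des (desmin), the most abundant member, was 1.16-fold higher with overlapping groups (adjusted p = 0.046), a call lost under most alternatives, library-size and RLE scaling among them.

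Of 30 regulators of commitment, 11 were higher and 8 lower in KO, beside 22.9% and 19.2% of all genes, and 9 and 4 without KO replicate 2, beside 19.7% and 18.9%. Myod1, the master regulator of the lineage, was at 254, 133 and 252 CPM in KO and 252, 224 and 281 CPM in WT and did not pass (adjusted p = 0.19). KO replicate 2 was far below the rest, and without it the log2 fold change was -0.02. Myog (myogenin), which Myod1 induces as cells commit, was at 32.4, 27.9 and 41 CPM in KO and 10.6, 5.05 and 18 CPM in WT. The 3 WT libraries spread more than 3-fold, the lowest KO library was above the highest WT library, and the difference was 3.01-fold (log2 fold change 1.59, SE 0.28, adjusted p = 8.8e-05). On day 0 Myog was near 0 in both groups, at 0.138 CPM in KO and 0.0232 CPM in WT, and the day 1 minus day 0 test did not pass (adjusted p = 0.91). Per transcript length, Myod1 stood at 254 TPM in WT and 207 TPM in KO, and Myog at 14.6 and 42.9 TPM.

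Other regulators went the other way. Hdac9, a class II histone deacetylase that represses Mef2, was at 1.49, 1.63 and 2.55 CPM in KO and 7.05, 7.59 and 6.49 CPM in WT. Rbm24, a muscle RNA-binding protein that steadies Myog mRNA and muscle splicing, was at 8.71, 7.87 and 9.89 CPM in KO and 18.6, 14.5 and 29.7 CPM in WT (2.37-fold lower, log2 fold change -1.25, SE 0.21, adjusted p = 4.2e-05). Nfix, the most abundant member, was 1.4-fold lower with the 3 KO libraries and had a log2 fold change of -0.31 without KO replicate 2. Mef2c, a late partner of Myog, had 5 counts in KO replicate 2 and none in the other day 1 libraries.

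The inhibitors of the myogenic factors did not move together. Of 22 tested Id, E-protein and repressor genes, 6 were higher and 7 lower, beside 22.9% and 19.2% of all genes, and 7 and 9 without KO replicate 2, beside 19.7% and 18.9%. The Id proteins sequester the E-protein partners of Myod1. Id1 was at 7.8, 6.2 and 7.83 CPM in KO and 7.26, 6.32 and 6.24 CPM in WT (adjusted p = 0.52). Id2 was at 19, 23.1 and 22.4 CPM in KO and 23, 25.9 and 24.3 CPM in WT (adjusted p = 0.081), and Id3 at 10.2, 7.7 and 10.8 against 6.92, 6.57 and 9.1 CPM (adjusted p = 0.063). The groups overlapped for all 3. Without KO replicate 2, Id2 passed as lower (log2 fold change -0.26, adjusted p = 0.02) and Id3 as higher (0.46, adjusted p = 0.016). All 3 had been far higher on day 0, with WT means of 78.4, 64.5 and 201 CPM. Msc (musculin), a repressor of Myod1, was at 8.12, 5.02 and 7.21 against 1.27, 1.61 and 1.54 CPM (4.58-fold higher). Heyl, a Notch-induced repressor, was at 28.8, 18.5 and 25.7 against 7.77, 4.5 and 8.12 CPM (3.58-fold higher). Snai1, which excludes Myod1 from enhancers in myoblasts, was at 78.8, 34.3 and 72.7 CPM in KO and 107, 111 and 106 CPM in WT. Its log2 fold change was -0.80 with KO replicate 2, by far the lowest library, and -0.53 without it.

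**Figure D5:**
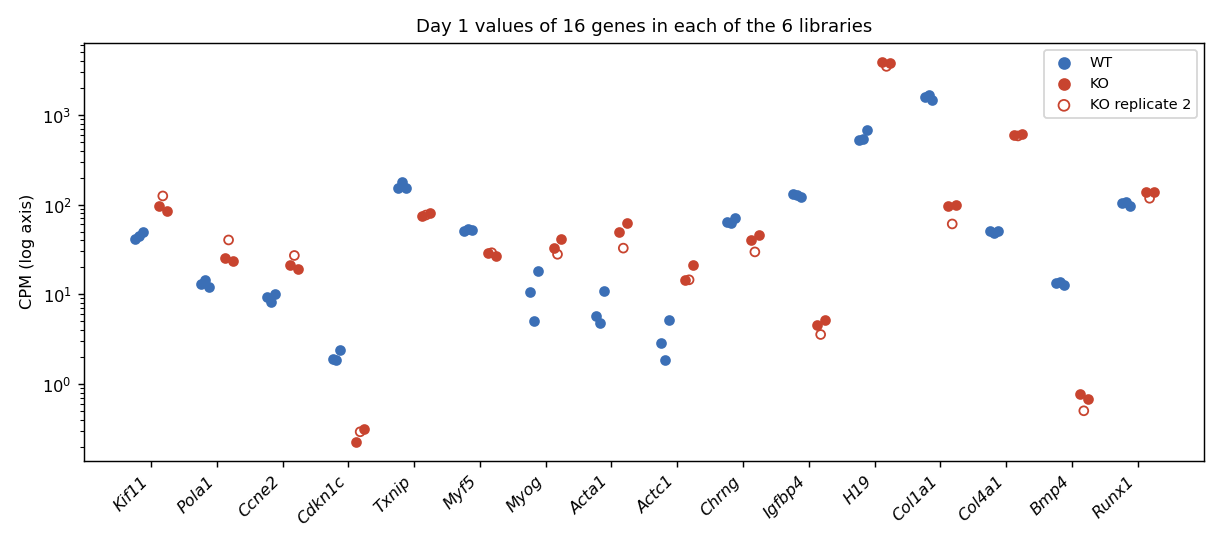
CPM (vertical axis, log scale) of 16 genes in each of the 3 WT (blue) and 3 KO (red, replicate 2 open) libraries of day 1. Most of the 16 genes were chosen under a rule that required groups not to overlap, as they do not for 47.1% of all tested genes. Col1a1 is at 1448 to 1645 CPM in WT and 60.7 to 97.8 CPM in KO, and Col4a1 is at 48.1 to 50.7 and 581 to 609 CPM.

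More contractile genes were higher than lower in KO. Their levels in WT ranged from 0 for Actn2 to a mean of 1541 CPM for Des. Of 30 early sarcomere and contractile genes, 16 were higher and 2 lower (median 0.85, or 0.83 with 1 gene at 0 in a group set to the 3-count floor and 1 at or under it in every library left out), and 12 and 1 without KO replicate 2, beside 22.9% and 19.2% of all genes with that library and 19.7% and 18.9% without it. The mean log2 CPM over the list was 2.92, 3.08 and 2.97 in KO and 2.06, 1.95 and 2.40 in WT. Acta1, the skeletal muscle actin of the adult sarcomere, was at 49.9, 32.7 and 62.5 CPM in KO and 5.69, 4.79 and 10.8 CPM in WT. Its lowest KO value was above its highest WT value (6.79-fold, log2 fold change 2.76, SE 0.26, adjusted p = 1.6e-08). Actc1, the actin of embryonic muscle, was at 14.3, 14.5 and 21 against 2.89, 1.87 and 5.13 CPM (5.04-fold, adjusted p = 2.8e-06). Xirp1, an actin-binding repeat protein of forming and injured muscle, was at 66.9, 67.6 and 71.4 CPM in KO and 9.01, 8.61 and 11.6 CPM in WT (7.04-fold). Unlike the actins, Xirp1 was already high in KO on day 0, at 89.8 CPM against 9.14 CPM in WT. Tpm1, the most abundant member by TPM, was at 1058, 1189 and 949 against 815, 836 and 869.7 CPM, 1.27-fold higher (adjusted p = 0.012), a call lost without KO replicate 2 (adjusted p = 0.087).

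The promoters of Myog and Acta1 are shown because both genes were higher in KO on day 1, 3.01-fold and 6.79-fold. Each is again the 250 bases before the start, with E-boxes (CANNTG, the site of Myod1 and Myog) in capitals.
Myog, chr1:134289754-134290003, plus strand: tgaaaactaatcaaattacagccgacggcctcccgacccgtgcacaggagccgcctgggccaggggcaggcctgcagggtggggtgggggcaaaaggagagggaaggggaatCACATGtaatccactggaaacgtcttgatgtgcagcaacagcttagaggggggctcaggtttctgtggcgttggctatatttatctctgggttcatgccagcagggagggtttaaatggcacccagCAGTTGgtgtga
Acta1, chr8:123894776-123895025, minus strand: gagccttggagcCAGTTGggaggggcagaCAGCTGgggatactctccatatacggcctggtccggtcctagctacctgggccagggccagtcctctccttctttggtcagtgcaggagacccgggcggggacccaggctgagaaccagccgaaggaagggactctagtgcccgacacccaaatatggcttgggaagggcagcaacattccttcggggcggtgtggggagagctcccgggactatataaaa
Myog held E-boxes 12 and 138 bases before its start, and Acta1 held a pair 221 and 238 bases before. CANNTG was present in 90.9% of 33 windows of the early sarcomere genes and in 63.9% of all windows. The CAGCTG form, which is contained in CANNTG, was in 30.3% of those 33 windows, 47.4% of 38 windows of the late muscle genes and 15.7% of all.

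Later muscle genes were more mixed and leaned on KO replicate 2. Of 34 listed genes of muscle metabolism and calcium handling, 33 were tested, of which 16 were higher and 7 lower, but only 9 and 6 without that library, beside 19.7% and 18.9% of all genes. The list median was 0.61, and 0.38 with 3 genes at 0 in a group set to the 3-count floor and 3 others, at or under it in every library, left out. Ckm, the muscle creatine kinase, was at 5.46, 5.32 and 7.3 CPM in KO and 0.51, 0.976 and 1.07 CPM in WT (7.03-fold higher). Mybph, a myosin-binding protein, was at 6.09, 4.73 and 8.1 against 0.85, 0.467 and 1.2 CPM (7.48-fold higher). Ryr1, the calcium release channel, was at 9.29, 10.1 and 11 against 4.38, 3.52 and 4.27 CPM (2.5-fold higher, adjusted p = 6.2e-05). Aldoa, the most abundant member, was 1.2-fold lower in KO (adjusted p = 0.047), a call lost without KO replicate 2 (adjusted p = 0.16).

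Of 18 genes of the acetylcholine receptor and the synapse, 1 was higher and 4 lower in KO, and 2 and 4 without KO replicate 2. The 4 lower are near the 19.2% of all genes lower (18.9% without that library). Chrng, the fetal receptor subunit, was at 40.6, 29.6 and 46.3 CPM in KO and 64.1, 61.5 and 70.3 CPM in WT (1.68-fold lower, log2 fold change -0.75, SE 0.14, adjusted p = 0.00023). Kcnj2, the inward rectifier potassium channel that hyperpolarises myoblasts before fusion, was at 0.226, 0.209 and 0.582 CPM in KO and 9.26, 11.4 and 9.61 CPM in WT (29.5-fold lower). Chrna1, the most abundant subunit, was at 537, 502 and 547 against 604, 563 and 629 CPM and did not pass (adjusted p = 0.11).

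The fusion proteins proper did not pass the test in either direction. Of 27 tested fusion and adhesion genes, 9 were higher and 4 lower, and 10 and 5 without KO replicate 2. Over all genes 22.9% were higher and 19.2% lower, and 19.7% and 18.9% without it. Mymk (myomaker), which every fusing myoblast needs, was at 10.5, 5.48 and 13.3 CPM in KO and 8.88, 8.27 and 12.5 CPM in WT, with overlapping groups (log2 fold change -0.03, SE 0.24, adjusted p = 0.95). Mymx (myomixer) was at 0.632, 1.13 and 1.16 against 0.68, 0.382 and 1.79 CPM (adjusted p = 0.96). Among surface proteins, Jam2 was at 49.8, 56.3 and 50.5 against 121, 119.8 and 132 CPM (2.38-fold lower) and Boc, a promyogenic co-receptor, at 4.24, 5.02 and 5.55 against 10.4, 12 and 9.23 CPM (2.13-fold lower). Dysf (dysferlin), a membrane repair protein, was 1.89-fold higher.

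In the insulin-like growth factor axis, 7 of 21 genes were higher and 7 lower, beside 22.9% and 19.2% of all genes, and 5 and 8 without KO replicate 2, beside 19.7% and 18.9%. Igfbp4, a secreted protein that binds and restrains Igf, was at 4.56, 3.56 and 5.1 CPM in KO and 129.8, 129 and 122 CPM in WT. This was 28.9-fold lower in KO (log2 fold change -4.85, SE 0.14, adjusted p = 1.4e-17). On day 0 it was at 0.493 CPM in KO and 46.1 CPM in WT, so the gap was smaller on day 1 (log2 1.68, SE 0.30, adjusted p = 0.0022). H19, the maternally expressed noncoding RNA beside Igf2, was at 3908, 3466 and 3781 CPM in KO and 518, 532 and 675 CPM in WT (6.47-fold higher, adjusted p = 1.2e-15). Its difference also narrowed from day 0 (log2 -1.16, SE 0.14, adjusted p = 6.8e-05). Igf2bp1, a fetal RNA-binding protein, was 4.55-fold higher (7.85, 8.46 and 6.4 against 1.7, 1.87 and 1.41 CPM). Igfbp2, the most abundant member, did not pass (adjusted p = 0.78).

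Other signalling pathways had members in both directions, beside 22.9% higher and 19.2% lower of all tested genes (19.7% and 18.9% without KO replicate 2). Of 23 tested Notch pathway genes, 4 were higher and 4 lower, and 5 and 6 without KO replicate 2. Notch3 was 2.1-fold lower (166, 117 and 171 against 324, 331 and 299 CPM), and the ligand Dll1 was 1.83-fold lower (11.6, 10.8 and 11.3 against 23.6, 14.5 and 23.6 CPM). Hes1, the most abundant Notch target on the list, did not pass (adjusted p = 0.59). Of 34 Tgf-beta and Bmp genes, 14 were higher and 12 lower, and 11 and 12 without KO replicate 2. The ligand Bmp4 was at 0.767, 0.502 and 0.671 CPM in KO and 13.4, 13.8 and 12.7 CPM in WT (20.5-fold lower), while Nog (noggin), which blocks Bmp ligands, was at 10.5, 5.95 and 8.82 against 1.61, 1.31 and 1.75 CPM (5.37-fold higher). Ltbp2, a matrix protein of the latent Tgf-beta family, was 2.32-fold lower.

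Of 38 Wnt pathway genes, 10 were higher and 12 lower, with and without KO replicate 2. Over all tested genes 22.9% were higher and 19.2% lower, and 19.7% and 18.9% without that library. The secreted inhibitors went both ways: Sfrp1 was at 31.3, 27.3 and 30.4 CPM in KO and 2.63, 2.29 and 2.43 CPM in WT (12.1-fold higher), Dkk2 at 14.1, 15.4 and 13.4 against 1.53, 1.95 and 1.24 CPM (9.06-fold higher), and Sfrp2 at 0.812, 0.335 and 0.716 against 11.3, 8.44 and 9.35 CPM (15.6-fold lower). Ctnnb1 (beta-catenin), the most abundant member, was 1.31-fold higher (adjusted p = 0.00012).

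The matrix differed in level and in kind. Of 42 tested collagen and matrix genes, 22 were lower and 9 higher in KO (median -0.41), beside 19.2% and 22.9% of all genes, and 23 and 11 without KO replicate 2, beside 18.9% and 19.7%. Col1a1, the main chain of type I collagen, was at 95.1, 60.7 and 97.8 CPM in KO and 1571, 1645 and 1448 CPM in WT. This was 18.4-fold lower (log2 fold change -4.20, SE 0.20, adjusted p = 1.5e-13). Lama4, a laminin chain, was at 0.541, 0.377 and 0.895 against 13.8, 12.3 and 10.4 CPM (20.0-fold lower). In contrast, the basement membrane collagen Col4a1 was at 594, 581 and 609 CPM in KO and 50.7, 48.1 and 50.6 CPM in WT (11.9-fold higher, log2 fold change 3.58, SE 0.08, adjusted p = 2.1e-19). Its partner chain Col4a2 was at 458, 413 and 463 against 48.6, 46.4 and 48.4 CPM (9.3-fold higher). Both genes are on chromosome 8 and lie head to head, Col4a1 at chr8:11198423-11312889 and Col4a2 at chr8:11312805-11449287 (GRCm38.p6). Fn1 (fibronectin), the most abundant member, was at 9639, 8731 and 9958 against 11675, 11455 and 10196 CPM and did not pass (adjusted p = 0.11). On day 0 Col1a1 was already at 18.8, 19.6 and 15.7 CPM in KO and 423 and 383 CPM in WT. Col4a1 was then at 540, 600 and 614 against 60.1 and 58.5 CPM. In the day 1 minus day 0 test, 1 of the 42 had a higher change in KO and 5 a lower one. Over all genes the shares were 2.64% and 1.31%. Without KO day 1 replicate 2 the counts were 1 and 6, beside 2.35% and 1.72%.

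Of 11 listed fibroblast markers, 8 were tested, 6 lower and 1 higher in KO, with and without KO replicate 2. Over all tested genes 19.2% were lower and 22.9% higher, and 18.9% and 19.7% without that library. Dcn and Lum are in both the fibroblast list and the matrix list. The 11 markers summed to 214 to 253 CPM in KO and 516 to 546 CPM in WT, while Thy1 and Tcf21 were at 0 in all 6 libraries. Bone and cartilage markers summed to 1034 to 1127 CPM in KO and 1745 to 1777 CPM in WT, but of 6 tested only 2 were lower and 1 higher (median -0.10). Adipocyte markers summed to 20.3 to 26.0 and 37.5 to 38.3 CPM, with 2 of 4 tested lower, 1 higher (median 0.27) and Adipoq, Cidec and Lep at 0 in all. Neural and glial markers had higher sums in KO, as given above, with 1 of 3 tested higher and 1 lower. Smooth muscle markers summed to 749 to 986 CPM in KO and 1171 to 1221 CPM in WT, with 1 of 7 tested higher and 1 lower. The higher smooth muscle call was lost without KO replicate 2, while the bone, adipocyte and neural counts were the same without it. In bulk RNA, fewer cells of a kind and less RNA per cell cannot be told apart, and the part of such cells in the matrix difference was not tested.

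The genes with the widest differences were mostly outside the muscle lists, and most showed them in the day 0 means as well. The homeobox gene Rhox5 was at 69.5, 75.9 and 59.3 CPM in KO and 0.212, 0.127 and 0.214 CPM in WT (359.5-fold higher, log2 fold change 8.49, SE 0.25, adjusted p = 1.4e-17). It stood at 81.1 and 0.314 CPM on day 0. Other genes with the most positive values were the forkhead factor Foxd1 (15.2-fold), the homeobox gene Esx1 (11.8-fold) and Magea8 of the Mage family (8.78-fold). Serpinb2, a plasminogen activator inhibitor, was 9.53-fold higher, and Asb2, a ubiquitin ligase adaptor of muscle, 7.9-fold. Arhgef28, a guanine nucleotide exchange factor, and Pde2a, a phosphodiesterase, were 7.63-fold and 7.58-fold higher. Of the 12 most positive genes, 4 (Sfrp1, Serpinb2, Arhgef28 and Pde2a) passed the day 1 minus day 0 test, and Foxd1 passed as well without KO day 1 replicate 2 (adjusted p = 0.018).

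At the other end, Hs3st1, a heparan sulfate sulfotransferase, had no count in any KO library and 11.8, 12.7 and 11 CPM in WT, at least 89.9-fold lower against a floor of 3 counts per library. Scara3, a scavenger receptor, had none against 9.69, 10.6 and 9.4 CPM, at least 75.2-fold lower. Bnc1 (basonuclin), a zinc finger factor, had 1 count over the 3 KO libraries and 14.8, 12.2 and 11.3 CPM in WT, a ratio of 873 (exact 95% interval 156 to 34510.1, counting error only). The guidance receptor Unc5c had 4 counts in KO and 14.7, 18.5 and 15.7 CPM in WT. Igsf5, Igsf10 and Ntrk3 each had 2 to 4 counts in KO and WT means of 5.16, 5.05 and 5.22 CPM. St8sia2, the enzyme that adds polysialic acid to Ncam1, was at 0.271, 0.377 and 0.448 CPM in KO and 31.5, 31.4 and 33.7 CPM in WT (86.7-fold lower). The cadherin-related Cdhr1 was 73.8-fold lower, and Barx2, a homeobox factor of satellite cells, was at 0.0451, 0.335 and 0.224 against 11, 10.7 and 10.04 CPM. Hsd11b1, which activates glucocorticoids, had 8 counts in KO and 4.76, 4.07 and 6.32 CPM in WT.

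The genotype difference of some genes changed widely in the first day. Mylpf, a fast muscle light chain, was at 14.7, 18.6 and 13.9 CPM in KO and 3.19, 2.21 and 4.7 CPM in WT on day 1, and at means of 0.418 and 0.673 CPM on day 0 (log2 change of the difference 2.92, SE 0.72, adjusted p = 0.021). Klhl13, a ubiquitin ligase adaptor of mitosis, was lower in KO on day 0 (9.78 against 23.1 CPM) and higher on day 1 (20.8, 31.8 and 22.5 against 8.96, 8.99 and 7.43 CPM). Its difference moved by 2.81 (SE 0.19, adjusted p = 6.1e-09). Insc, a spindle orientation protein, was at 0.385 against 2.03 CPM on day 0 and on day 1 did not pass with all libraries (adjusted p = 0.14) but passed as higher without KO replicate 2 (adjusted p = 0.041). Smyd1, a methyltransferase of sarcomere assembly, was already at 9.3 CPM in KO on day 0 against 0.884 CPM in WT. By day 1 it was at 33.1, 39.4 and 36.9 CPM in KO and 17.9, 15.9 and 21.6 CPM in WT, still higher in KO but by less (log2 change of the difference -2.41, SE 0.27, adjusted p = 1.8e-05). The actin-associated Synpo2l did the same (24.3 against 2.93 CPM on day 0, 90.3, 79.3 and 94.4 against 56, 50.3 and 65.5 CPM on day 1). Dcn (decorin), a matrix proteoglycan, was lower in KO on day 1 (17.6, 13.4 and 15.9 against 24.3, 25.2 and 24.9 CPM) and at means of 1.18 and 0.316 CPM on day 0.

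Of 25 cholesterol synthesis genes, 13 were higher and 1 lower (median 0.26), beside 22.9% and 19.2% of all genes, and 16 and 1 without KO replicate 2, beside 19.7% and 18.9%. Sqle (squalene epoxidase) was at 449, 459 and 455 CPM in KO and 307, 292 and 299 CPM in WT (1.52-fold), Cyp51 was 1.52-fold higher and Idi1 1.67-fold. Of 50 respiratory chain subunits, 17 were higher and none lower (median 0.17), and 16 and none without KO replicate 2, beside the same shares. Cycs (cytochrome c) was 1.74-fold, Cox6c 1.53-fold, Cox7a2 1.43-fold and Atp5b, the most abundant, 1.33-fold higher. Of 59 cytosolic ribosomal protein genes 10 were higher and 1 lower, 11 and 1 without KO replicate 2, and 17 were higher with a GC offset, beside 22.9% of all tested genes higher. Rps2, the most abundant, did not pass (adjusted p = 0.76).

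Of 24 Trp53 targets, 6 were higher and 6 lower, and of 21 Bcl2 family genes 6 and 4, near the shares of all tested genes (22.9% and 19.2%). Without KO replicate 2 the counts were 8 and 7, and 5 and 4, beside 19.7% and 18.9% of all genes. The Trp53 counts without that library were thus above the shares of all genes. Plk2, a kinase induced by Trp53, was 1.79-fold higher and Pmaip1 (Noxa) 1.76-fold higher, while the death activators Bbc3 (Puma) and Bmf were 1.55-fold and 1.6-fold lower and the survival gene Bcl2 1.56-fold lower. Bax, the most abundant family member, did not pass (adjusted p = 0.6), and passed as higher without KO replicate 2 (adjusted p = 0.04). Of 30 genes of the unfolded protein and amino acid stress responses, 6 were higher and 7 lower, near the 22.9% and 19.2% of all genes. Without KO replicate 2 they were 4 and 6, beside 19.7% and 18.9%. The lipoprotein receptor Vldlr was 2.88-fold lower, the stress factor Nupr1 1.57-fold and the chaperone partner Dnajb9 1.47-fold. The chaperone Calr was 1.16-fold lower, a call lost without KO replicate 2 (adjusted p = 0.073).

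Among 21 tested Runx family genes and partners, 8 were higher and 5 lower, beside 22.9% and 19.2% of all genes, and 7 and 3 without KO replicate 2, beside 19.7% and 18.9%. The co-repressor Tle4 was at 5.28, 4.94 and 6.36 CPM in KO and 2.17, 1.65 and 1.67 CPM in WT (3.01-fold higher) and Tle2 at 19.7, 12.7 and 19.4 against 35.9, 32.6 and 30.5 CPM (1.91-fold lower). The Ets factors Gabpa and Ets2 were 1.47-fold and 1.37-fold higher.

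Of 32 interferon response genes, 10 were lower and 5 higher in KO on day 1, beside 19.2% and 22.9% of all genes, and 11 and 5 without KO replicate 2, beside 18.9% and 19.7%. The list median was -0.36 (-0.50 without the 8 genes at or under the 3-count floor in every library). Bst2 was at 3.29, 3.47 and 3.85 against 5.31, 7.47 and 6.96 CPM (1.86-fold lower), the RNA sensor Ddx58 1.68-fold lower, and Ifit2 at 13.5, 24.7 and 13.2 against 8.75, 9.67 and 9.53 CPM (1.84-fold higher). In the day 3 minus day 1 test 22 of the 32 had a higher change in KO, beside 3.47% of all genes, and 23 without KO day 1 replicate 2, beside 3.63%. Ifit3, at 0.406, 0.167 and 0.0895 CPM in KO and 0.382, 0.382 and 0.171 CPM in WT on day 1, was at means of 42.9 and 1.01 CPM on day 3, and Irgm2 at 19.4 and 2.11 CPM. The widest falls in the difference over the same step were in Pappa, Lrrc15 and Ngfr. Lrrc15 was at 9.07, 8.96 and 9.36 CPM in KO and 9.9, 10.3 and 9.91 CPM in WT on day 1, and at means of 3.61 and 25.4 CPM on day 3.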

How the data were processed

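RNA-seq of 23 C2C12 libraries in 8 groups (genotype by day) was used. Reads were aligned with Bowtie2 and quantified with RSEM on mm10, per the submitters' processing notes, whose versions are not given in the sources used here. The authors deposited estimated counts per gene, which were rounded to whole numbers, and TPM values, which were used to compare levels between genes and, as log2(TPM + 1) and log2(TPM + 0.1), as alternatives in limma.

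Counts were scaled by TMM, filtered with filterByExpr (minimum count 10, minimum total 15) and fitted with edgeR 4.0.16 in R 4.3.3 as 1 mean per group over all 23 libraries. Quasi-likelihood F-tests were made for 5 contrasts, with Benjamini-Hochberg adjustment over all tested genes and a threshold of 0.05. Library totals ran from 22197606 to 23684077 counts. Scripts were tested on simulated data. Alternatives used limma 3.58.1, DESeq2 1.42.0, other scalings, filters, a GC offset, a replicate block and each library left out.

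Named genes were Runx1, 14 regulators named whatever they did, the 12 most positive and 12 most negative genes, for each list the 3 widest calls and the member highest in TPM, and the 3 most positive and 3 most negative genes of each genotype-by-day test. The 12 most positive and 12 most negative genes and the widest list calls had to pass with and without KO replicate 2. They also had to reach 5 CPM in a group and not overlap between groups. The genes of the genotype-by-day tests had to pass with and without KO day 1 replicate 2 and reach 5 CPM, with no condition on overlap. Runx1, the regulators and the members highest in TPM had no such conditions. Some genes that this rule names are not reported here. The gene lists and the genes followed were chosen with earlier results of these data known. Sequences and positions are from RefSeq, GRCm38.p6. Intervals and floors (3 counts) cover counting error only.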

Additional observations from a re-analysis of the deposited data

Results flagged for a closer look

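The genotype difference itself differed between day 1 and day 0 in 560 genes, and between day 3 and day 1 in 858 genes, by edgeR's test of that difference. Leaving out 1 library at a time gave 148 to 919 and 595 to 1084 genes. The 560 moved by over 1.5 times to 148 without WT day 0 replicate 2, 244 without WT day 0 replicate 1, 289 and 325 without WT day 1 replicates 2 and 1, 329 and 335 without KO day 0 replicates 2 and 1, and 919 without KO day 1 replicate 3. These tests share the day 1 libraries. Without KO day 1 replicate 2, of the named genes that passed, 28 kept their day 1 minus day 0 call and 3 (Cycs, Cyp51 and Rbl1) lost it, and 40 kept their day 3 minus day 1 call and 2 (Cdkn1c and Mymk) lost it. Values below are log2 changes of the KO over WT difference, positive where it moved towards KO.

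From day 0 to day 1 the cell division genes moved by 1.04 for Cdc6, 0.85 for Pcna, 1.12 for Pola1 and 0.54 for Mcm6 in replication, and by 1.00 for Kif11, 1.06 for Smc2, 0.94 for Ect2 and 0.70 for Cdk1 in mitosis. Regulators of the cell cycle moved by 1.18 for Ccne2, 0.79 for Lin9, 0.67 for Lin54 and 0.52 for Rbl1. Among muscle genes the values were 2.92 for Mylpf, 0.53 for Myf5, -0.46 for Des, -2.43 for Synpo2l and -2.41 for Smyd1. Growth factor and early response genes gave 1.68 for Igfbp4, -1.16 for H19, 0.88 for Spry4, -1.01 for Ier3 and -0.67 for Id2. Genes far apart on day 1 gave 0.90 for Sfrp1, 1.36 for Serpinb2, 0.94 for Arhgef28 and 1.32 for Pde2a. The rest were 0.40 for Ets2, 0.71 for Cycs, 0.44 for Cyp51, 2.81 for Klhl13, 2.75 for Insc and -2.55 for Dcn.

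From day 1 to day 3 the values were 5.89 for Ifit3, 5.86 for Irgm2, -2.75 for Pappa, -2.68 for Lrrc15 and -2.66 for Ngfr. Scara3 had a value of 5.39, which depends on the prior count because it had no count in the KO libraries of day 1.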

How the results depend on the processing

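Of 147 named genes 122 passed on day 1, and 111 of these kept their direction and their side of the threshold under all 20 alternatives; over 2930 gene and alternative pairs, 2793 kept both, 81 lost the call, 54 gained it and 2 reversed. Both reversals were Malat1, which ran from -0.23 without KO replicate 2 to 1.35 without KO replicate 3, and was -0.24 when KO replicate 2 was left out of a fit on the 6 day 1 libraries; the cause was not tested beyond leaving it out. Fitted on the compared groups alone, the day 1 count was 3607 (3323 with a replicate block, 5974 without KO replicate 2) and the day 1 minus day 0 count 239. At an adjusted p under 0.01 the 2 genotype-by-day counts were 197 and 445. At an absolute log2 fold change of at least 1 the counts were 1253 for day 1, 2483 for day 1 over day 0 in WT, 1766 in KO, and 117 and 300 for the genotype-by-day tests. The same fold left 6 mitosis, 5 replication and 4 G1 genes higher, 4 growth arrest and 10 matrix genes lower, and 3 mitosis and 2 replication genes with a higher change from day 0 in KO. The mitosis count of that change was 21 in the compared groups alone, 21 on log2(TPM + 0.1) and 21 at 0.01. The late muscle count was 8 in the compared groups alone, 10 with the block, 10 without KO replicate 2 there, and 9 at 0.01; these fits hold fewer libraries or a stricter threshold.

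Leaving out each library in turn gave 4840 to 6048 day 1 calls, 6025 to 7309 for WT and 6333 to 7611 for KO over day 0, 148 (without WT day 0 replicate 2) to 919 (without KO day 1 replicate 3) for day 1 minus day 0, and 595 to 1084 for day 3 minus day 1. By list it gave 39 to 40 mitosis, 33 to 36 replication, 18 to 20 G1, 12 to 17 early sarcomere and 9 to 16 late muscle genes higher, and 12 to 14 growth arrest and 22 to 23 matrix genes lower. For the change from day 0 it gave 12 to 35 mitosis and 15 to 28 replication genes. A lone WT day 0 library was assumed to vary like the other groups. Same-numbered day 1 libraries did not deviate together (r = -0.011, 0.012 and 0.008). These values cannot exclude a weak tie between them, because the deviation of KO replicate 2 enters the group mean of every KO library. With a replicate block in the fit over all libraries the counts were 5833 for day 1, 441 for day 1 minus day 0 and 762 for day 3 minus day 1. The fits on the day 1 libraries with a block and without KO replicate 2 were chosen after seeing the data.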

Other observations

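The day 1 calls were unevenly spread over the chromosomes, where 22.9% of all tested genes were higher and 19.2% lower. On chromosome 7, 34.5% of 1007 tested genes were higher in KO and 14.2% lower, with a median log2 difference of 0.16 on day 1, 0.19 on day 0 and 0.20 on day 3. On chromosome 10 the shares were 32.9% higher and 15.4% lower. Chromosome 14 went the other way, with 14.3% higher and 31.6% lower, as did chromosome 3 (15.8% and 31.4%) and chromosome 17 (13.6% and 27.8%). Without KO replicate 2 the medians were 0.19, 0.11, -0.16, -0.14 and -0.07 on chromosomes 7, 10, 14, 3 and 17. On day 0 the medians were 0.13 on chromosome 10, -0.17 on chromosome 14, -0.12 on chromosome 3 and -0.08 on chromosome 17. Of the 24 genes with the widest differences 4 were on the X chromosome, where 3.20% of the tested genes with a position lie. These are values with no test.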
